A study of Mus musculus with 12 samples.

Results

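The Slc25 family encodes the mitochondrial carriers, and here it is followed in mouse bone marrow LSK cells of 3 genotypes. Its members were taken by symbol: every gene named Slc25a followed by digits only, which gave 47 of the 55487 genes listed in the deposited tables. LSK cells, sorted as negative for lineage markers and positive for Sca1 and c-Kit, are the marrow fraction in which blood stem cells and the earliest progenitors are found. The 12 RNA sequencing libraries were 4 of Yy1+/+, the wild-type control, 4 of Yy1-/- and 4 of Yy1-/- Smc3+/-. Yy1 encodes the zinc finger transcription factor Yin Yang 1, and Smc3 a subunit of the cohesin ring. How and in which cells the alleles were deleted, and the age, sex and strain of the mice, are not stated in the labels. The replicate numbers 1 to 4 used here follow the order of deposit within a genotype and only name libraries; they pair none. Nor is it stated whether each library came from a separate animal, so p-values measure the spread between these libraries.

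A mitochondrial carrier is a small protein of the inner mitochondrial membrane, folded as a barrel of helices, that moves one metabolite across the membrane, often in exchange for another. The carriers connect the cytosol with oxidative phosphorylation, the citric acid cycle, amino acid and fatty acid breakdown, and the making of haem and iron-sulphur clusters. Blood stem cells are known for low mitochondrial activity, and mitochondrial output is known to rise as they divide and differentiate. A few members sit in other membranes, such as Slc25a17 in the peroxisome and Slc25a46 in the outer mitochondrial membrane.

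Promoter sequences are shown for 5 members. Slc25a4, Slc25a29 and Slc25a36 are among those that passed the test against Yy1+/+ in both other genotypes. Slc25a5 is the close relative of Slc25a4, and Slc25a3 is among those that hold the motif searched. Each window runs from 250 bases before to 50 bases after the annotated start (RefSeq, GRCm38.p6), 5′ to 3′ on the strand of the gene, and capitals mark the letters CCATNTT, the core of the consensus bound by YY1. The windows lie at chr8:46211013-46211312 (minus strand) for Slc25a4, chrX:36795347-36795646 (plus) for Slc25a5, chr12:108835827-108836126 (minus) for Slc25a29, chr9:97110992-97111291 (minus) for Slc25a36 and chr10:91123918-91124217 (minus) for Slc25a3.
Slc25a4: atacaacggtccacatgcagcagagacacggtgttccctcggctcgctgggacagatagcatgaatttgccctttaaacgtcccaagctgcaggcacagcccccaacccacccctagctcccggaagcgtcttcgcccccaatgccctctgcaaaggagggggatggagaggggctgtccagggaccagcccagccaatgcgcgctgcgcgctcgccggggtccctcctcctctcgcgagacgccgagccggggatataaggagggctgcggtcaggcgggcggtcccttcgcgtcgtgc
Slc25a5: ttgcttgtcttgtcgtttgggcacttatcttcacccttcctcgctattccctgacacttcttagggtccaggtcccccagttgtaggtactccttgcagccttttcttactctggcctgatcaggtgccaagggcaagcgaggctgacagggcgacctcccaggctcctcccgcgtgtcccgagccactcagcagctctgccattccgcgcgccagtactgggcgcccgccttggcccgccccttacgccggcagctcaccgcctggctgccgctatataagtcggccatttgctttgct
Slc25a29: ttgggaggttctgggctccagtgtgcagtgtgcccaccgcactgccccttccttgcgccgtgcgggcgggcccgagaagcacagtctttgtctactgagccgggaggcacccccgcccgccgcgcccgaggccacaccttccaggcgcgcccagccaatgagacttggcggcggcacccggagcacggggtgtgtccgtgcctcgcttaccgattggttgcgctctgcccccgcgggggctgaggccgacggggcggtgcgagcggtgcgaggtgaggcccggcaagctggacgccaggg
Slc25a36: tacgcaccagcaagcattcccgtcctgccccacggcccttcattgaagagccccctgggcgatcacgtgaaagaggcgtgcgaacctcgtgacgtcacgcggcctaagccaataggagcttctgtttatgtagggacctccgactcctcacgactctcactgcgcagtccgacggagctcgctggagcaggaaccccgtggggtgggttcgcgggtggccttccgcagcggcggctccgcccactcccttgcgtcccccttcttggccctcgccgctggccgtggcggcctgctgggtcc
Slc25a3: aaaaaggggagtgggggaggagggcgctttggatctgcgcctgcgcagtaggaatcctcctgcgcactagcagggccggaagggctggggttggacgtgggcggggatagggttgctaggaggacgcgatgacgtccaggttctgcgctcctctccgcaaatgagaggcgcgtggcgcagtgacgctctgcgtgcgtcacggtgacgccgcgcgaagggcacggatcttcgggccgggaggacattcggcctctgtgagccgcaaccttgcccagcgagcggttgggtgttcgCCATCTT
Of these 5 windows, the letters stand in that of Slc25a3 alone, beginning 43 bases after the start. A window was matched for 36 of the 47 members, and 4 of the 36 (11.1%) held CCATNTT on either strand: Slc25a3, Slc25a14, Slc25a21 and Slc25a25. For all 27025 genes with a window the share was 18.2%. The longer form GCCATNTT, a subset of these matches, was found in 2 members (5.6%) and in 7.0% of all genes. Of the 10 members with a window that passed the test in a comparison, 2 held CCATNTT, Slc25a3 and Slc25a21. Slc25a21 passed in both other genotypes but is not among the 5 shown. The matches in Slc25a14, Slc25a21 and Slc25a25 each lie in only some of the windows of the gene. A match is a run of letters, not a measured binding site.

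Summed expected counts, the RSEM estimate of the reads of each gene, lay between 38671354 and 69086104 per library. Yy1 mRNA was 35.8 ± 3.63 CPM (SD, n = 4; reads of a gene scaled to library size as CPM) for Yy1+/+ libraries, 4.65 ± 5.43 for Yy1-/- and 1.74 ± 1.81 for Yy1-/- Smc3+/-. Yy1 reads remained unequally: replicates 3 and 4 of Yy1-/- kept 5.003 and 12.2 CPM and replicate 3 of Yy1-/- Smc3+/- kept 4.45 CPM, while the other 5 libraries had 0.407 to 0.996. The mRNA of Smc3 was not lower under the heterozygous label: it stood at 301 ± 38.1 CPM under the label Yy1-/- Smc3+/-, 255 ± 45.2 under Yy1-/- and 177 ± 25.2 under Yy1+/+. Counts per gene do not separate the alleles, so these values cannot settle the label. Directions for that group are therefore those of the libraries so labelled. In the same order of genotypes as the Yy1 values, the sort marker Kit was 769 ± 242, 176 ± 69.8 and 245 ± 87.4 CPM, and Ly6a, which encodes Sca1, was 187 ± 32.2, 251 ± 88.0 and 230 ± 78.5. All 16 genes of a stem cell list fell in both groups against Yy1+/+, and their summed level was 1721 to 1909 CPM for Yy1+/+, 138.9 to 285 for Yy1-/- and 224 to 331 for Yy1-/- Smc3+/-. In sorted bulk RNA, fewer cells of a type and less RNA per cell cannot be told apart. Yy1+/+ replicate 2 was the deepest library and Yy1-/- replicate 1 had the highest summed level of 14 monocyte, macrophage and dendritic cell genes (6842 CPM, with 4694 in replicate 2 and 561 to 1568 in all others). Of these 14 genes, 11 rose in Yy1-/- and 9 in Yy1-/- Smc3+/-, and of 11 tested megakaryocyte genes 7 and 6 fell. Of 14 T, NK and innate lymphoid cell genes 7 rose and 1 fell in Yy1-/-, and 7 rose and 2 fell in Yy1-/- Smc3+/-. Of 13 eosinophil, mast cell and basophil genes 3 rose and 5 fell in Yy1-/-, and 2 rose and 5 fell in Yy1-/- Smc3+/-. Over all genes 16.4% rose and 18.8% fell in Yy1-/-, and 13.2% rose and 16.7% fell in Yy1-/- Smc3+/-. In Yy1-/- Smc3+/- replicate 3, 14 neutrophil and granulocyte progenitor genes summed to 17600 CPM, against 1917 to 2644 in the others of its genotype. In Yy1+/+ replicate 2, 13 eosinophil, mast cell and basophil genes summed to 2350 CPM, against 429 to 864 in the others of its genotype. Yy1+/+ replicate 2 also had the highest summed level of 14 dissociation and immediate early genes, which respond to handling: 10920, 25140, 991.7 and 8505 CPM in Yy1+/+ replicates 1 to 4, against 740 to 4426 for Yy1-/- and 1380 to 8397 for Yy1-/- Smc3+/-. Of the 14, Jund, Egr1, Dusp1, Ier2, Hspa1b, Dnajb1 and Btg2 fell in Yy1-/-, and Hspa1b and Dnajb1 in Yy1-/- Smc3+/-. The part of these lists in the carrier results was not tested.

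The family as a whole kept a similar total. On the per-length scale of TPM, the summed members held 2886 ± 199 TPM for Yy1+/+, 2772 ± 293 for Yy1-/- and 2806 ± 128 for Yy1-/- Smc3+/- (SD, n = 4), ranges that overlap. Slc25a5, which encodes the adenine nucleotide translocator ANT2, alone made up 40.3%, 42.2% and 40.7% of that sum in the same order. The 6 members highest in Yy1+/+ were Slc25a5 at 1171 ± 255 TPM, the phosphate carrier gene Slc25a3 at 254 ± 10.5, the glutathione carrier gene Slc25a39 at 217 ± 21.8, the oxoglutarate/malate carrier gene Slc25a11 at 180 ± 24.95, the citrate carrier gene Slc25a1 at 164 ± 4.60 and the ANT1 gene Slc25a4 at 159 ± 7.78. The ranges of Slc25a11, Slc25a1 and Slc25a4 overlap in Yy1+/+, as do those of Slc25a39 and Slc25a11. Within each Yy1+/+ library Slc25a39 stood above Slc25a11, and Slc25a1 above Slc25a4, in replicate 4 only by 169.21 to 169.11 TPM. Slc25a11 and Slc25a1 changed order between libraries. These orders were not tested. The same 6 led in all 3 genotypes, with Slc25a4 moving from the sixth place to the fourth, and they held 74.1%, 78.2% and 76.9% of the family sum. Next came Slc25a17 at 85.6 ± 2.77 TPM; near the end of the order stood Slc25a29 at 3.46 ± 1.70 TPM, and Slc25a41, an ATP-Mg/phosphate carrier gene, was lowest of those tested at 0.225 ± 0.194 TPM.

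**Figure D1:**
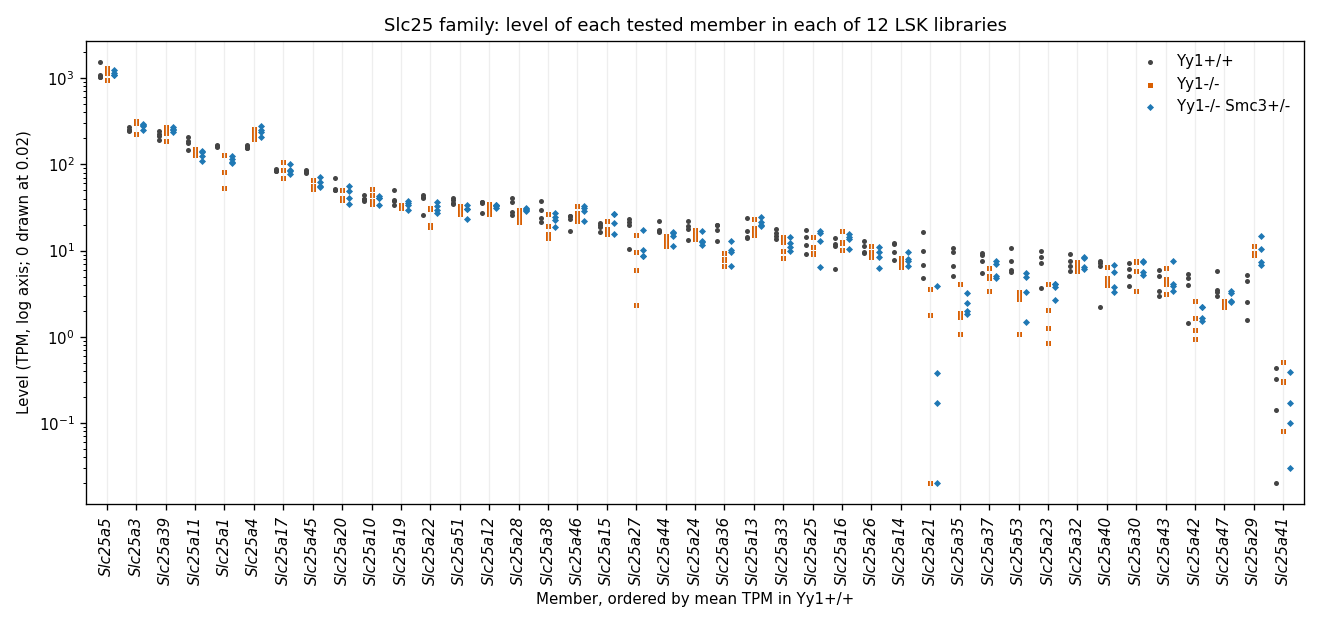
Level of each of the 41 tested Slc25 members in TPM (log axis; values of 0 drawn at 0.02), ordered by the mean in Yy1+/+; each point is 1 library, 4 per genotype. Slc25a5 lies far above all other members in every library, and Slc25a29 lies near the bottom of the order in Yy1+/+ and higher in both other genotypes.

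Of the 47 members, 41 passed the filter on low counts and 6 did not. Of these 6, Slc25a18, a glutamate carrier gene, Slc25a31, the ANT gene of the testis, and Slc25a54 had 0 counts in all 12 libraries, which allows up to 0.00543 CPM over the libraries together, counting error only. The other 3, Slc25a2, Slc25a34 and Slc25a48, never passed 0.442 CPM in a library.

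The first comparison concerns the loss of Yy1 by itself. Among the carriers, Slc25a4, Slc25a3, Slc25a29 and Slc25a46 rose, and Slc25a21, Slc25a23, Slc25a35, Slc25a36, Slc25a42 and Slc25a53 fell. These 10 of 41 tested members (24.4%) stand beside 35.2% of all 16649 genes tested, of which 16.4% rose and 18.8% fell (edgeR quasi-likelihood test, Benjamini-Hochberg adjusted p under 0.05 over all genes). The median log2 fold change was -0.068 over the members and 0.006 over all genes. The 4 libraries of a genotype lay wholly above those of the other for 6 members and wholly below for 5, beside 30.9% of all genes with no overlap in either direction. On log2(TPM + 1) values, which shift the median of all genes to -0.177, 2 members rose and 12 fell, with a member median of -0.294. At an unadjusted p under 0.05 there were 15 members, beside 45.3% of all genes. In the first fit run here, with another dispersion setting, 8 members passed (19.5%, beside 30.1% of all genes), without Slc25a21 and Slc25a42. The setting reported was chosen with both results seen. The number that rose was 2 without replicate 1 or replicate 3 of Yy1-/- and without the 3 libraries with most remaining Yy1 reads, and the number that fell was 3 without Yy1+/+ replicate 4. Without both Yy1+/+ replicate 2 and Yy1-/- replicate 1, 7 members passed (17.1%, beside 30.5% of all genes): the calls of Slc25a3, Slc25a21, Slc25a46 and Slc25a53 were lost and Slc25a39 passed.

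In the libraries labelled Yy1-/- Smc3+/-, Slc25a4, Slc25a13, Slc25a15, Slc25a29 and Slc25a46 rose against Yy1+/+, and Slc25a21, Slc25a35 and Slc25a36 fell. These are 8 of 41 members (19.5%), beside 29.9% of all genes, of which 13.2% rose and 16.7% fell. The median log2 fold change was -0.083 over the members and 0.020 over all genes. Groups did not overlap for 5 members upwards and 4 downwards, beside 32.2% of all genes, and 15 members had an unadjusted p under 0.05, beside 41.4%. The number that rose was 2 without replicate 2 or 4 of Yy1-/- Smc3+/- or replicate 1 or 4 of Yy1+/+, and 3 without replicate 3 of either group. On log2(TPM + 1), where the median of all genes was -0.111, 2 members rose and 5 fell. The first fit run here, with another dispersion setting, passed 6 members (14.6%, beside 24.7% of all genes), without Slc25a15 and Slc25a21. Without Yy1+/+ replicate 2 and Yy1-/- replicate 1, 10 members passed (24.4%, beside 31.4% of all genes). Both comparisons use the same Yy1+/+ libraries, so their shared calls (3 members higher and 3 lower in both, 0 opposite) are not independent, and the values are set side by side below.

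**Figure D2:**
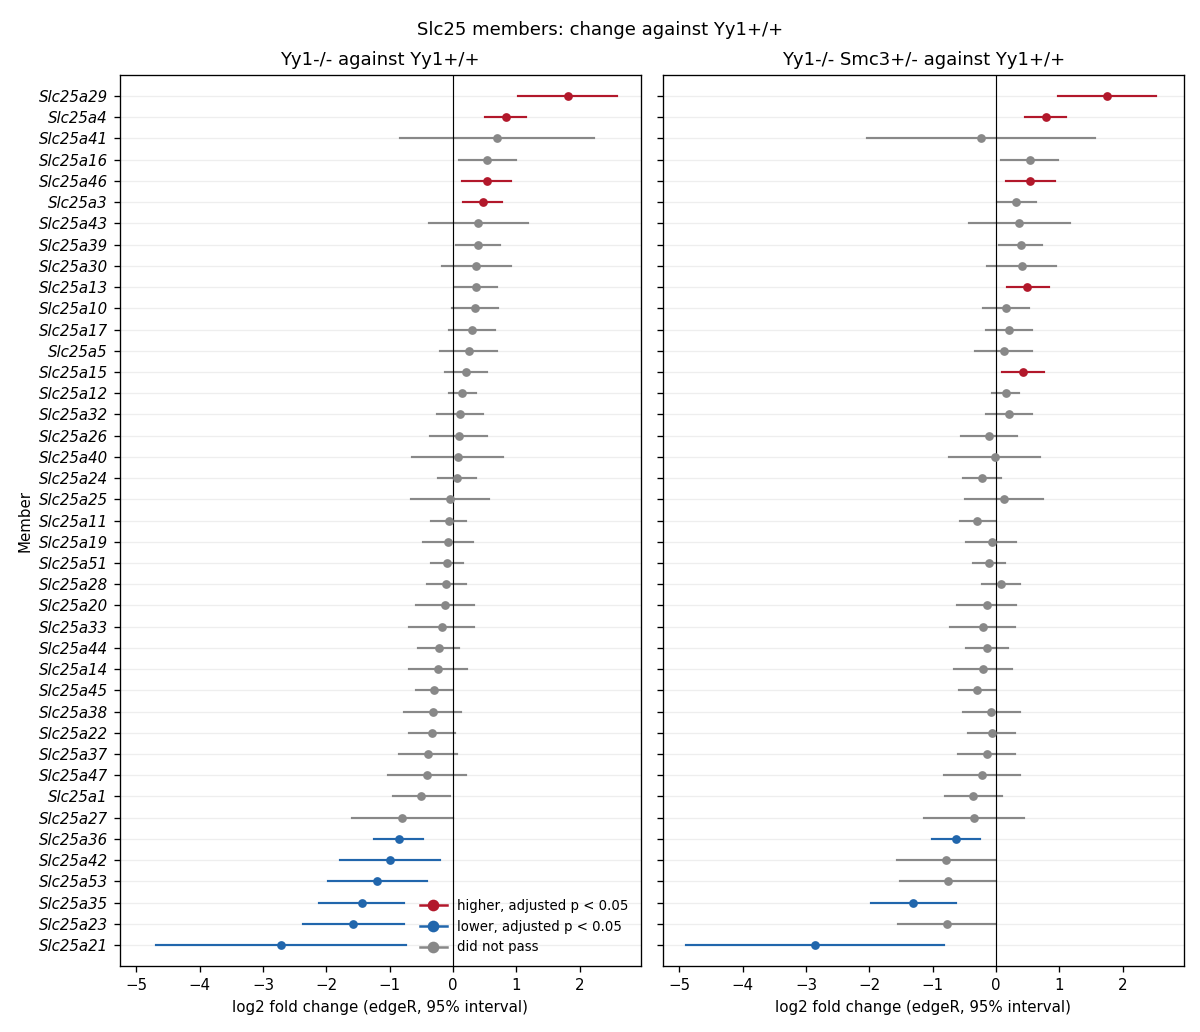
Log2 fold change of the 41 tested members against Yy1+/+ (edgeR, bars are 95% intervals) in Yy1-/- (left) and Yy1-/- Smc3+/- (right), ordered by the left panel; red and blue mark members that passed the test at an adjusted p under 0.05. Slc25a29 is the highest in both panels (1.81 and 1.74) and Slc25a21 the lowest (-2.72 and -2.86).

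The adenine nucleotide and phosphate carriers supply ATP synthase with ADP and phosphate and export ATP. Slc25a4 (ENSMUSG00000031633.4, chr8:46206797-46211284, minus strand, GRCm38) encodes ANT1, the ADP/ATP exchanger known as the main form of heart and muscle. Its level was 173, 213, 172 and 190 CPM in Yy1+/+ replicates 1 to 4, 406, 277, 371 and 282 CPM in Yy1-/-, and 383, 292, 290 and 327 CPM in Yy1-/- Smc3+/-. Every library of both other genotypes lay above every Yy1+/+ library. Slc25a4 rose 1.79-fold in Yy1-/- (0.84 ± 0.15 on the log2 scale, ± being the SE, edgeR adjusted p = 0.00113) and 1.73-fold in Yy1-/- Smc3+/- (0.79 ± 0.15, edgeR adjusted p = 0.00194).

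Slc25a5 (ENSMUSG00000016319.3, chrX:36795651-36798807, plus strand), which encodes ANT2, the form of dividing cells, had 674, 1240, 624 and 700 CPM in Yy1+/+, 1154, 764, 1098 and 837 CPM in Yy1-/-, and 976, 822, 892 and 825 CPM in Yy1-/- Smc3+/-. Yy1+/+ replicate 2 was higher than all libraries of the other genotypes, while the other Yy1+/+ libraries were lower than all of them. Its log2 fold change was 0.25 in Yy1-/- (95% interval -0.20 to 0.70, edgeR adjusted p = 0.377) and 0.12 in Yy1-/- Smc3+/- (-0.34 to 0.57, edgeR adjusted p = 0.707). Without Yy1+/+ replicate 2 Slc25a5 was higher in Yy1-/- (0.53, edgeR adjusted p = 0.0161) and 0.40 higher, without passing the test, in Yy1-/- Smc3+/- (edgeR adjusted p = 0.0626).

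Within a library, Slc25a4 stood at 14.8%, 9.87%, 15.9% and 15.6% of the TPM of Slc25a5 in Yy1+/+ replicates 1 to 4. The same ratio was 20.3%, 20.8%, 19.5% and 19.4% in Yy1-/- and 22.6%, 20.5%, 18.8% and 22.9% in Yy1-/- Smc3+/-. The 8 libraries of the other genotypes all lay above the 4 of Yy1+/+, with means of 14.0 ± 2.81%, 20.0 ± 0.667% and 21.2 ± 1.92% (SD, n = 4), and this ratio shows unequal change of the 2 genes within a library.

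**Figure D3:**
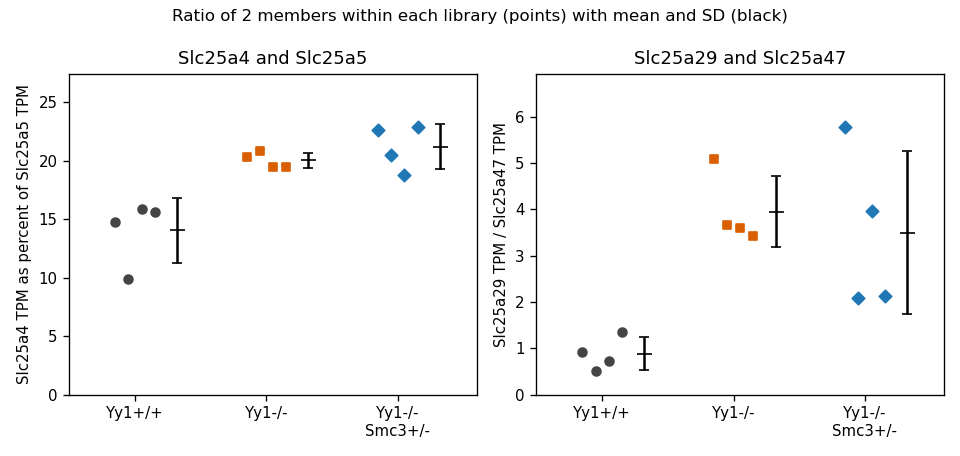
Ratio of 2 members within each library (points, replicates 1 to 4 from left; black, mean and SD of n = 4): Slc25a4 as a percent of Slc25a5 TPM (left) and Slc25a29 over Slc25a47 TPM (right). In both panels the Yy1+/+ libraries lie below all libraries of the other 2 genotypes.

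Slc25a3 (ENSMUSG00000061904.12, chr10:91116574-91124059, minus strand) encodes the phosphate carrier, which also brings copper to cytochrome oxidase. It had 229, 271, 217 and 242 CPM in Yy1+/+, 384, 253, 366 and 324 CPM in Yy1-/-, and 312, 253, 332 and 299 CPM in Yy1-/- Smc3+/-. In the Yy1-/- group, replicate 2 lay within the Yy1+/+ range and the other 3 lay above it. Slc25a3 rose 1.38-fold in Yy1-/- (0.47 ± 0.14, edgeR adjusted p = 0.0221), and in Yy1-/- Smc3+/- the log2 fold change was 0.32 (0.01 to 0.63, edgeR adjusted p = 0.111). The rise lost its call without replicates 1 or 3 of Yy1-/- or of Yy1+/+ (0.36 to 0.444, edgeR adjusted p 0.0592 to 0.0853), and its adjusted p ran from 0.00509 to 0.252 over 17 alternatives.

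The ATP-Mg/phosphate carriers set the size of the adenine nucleotide pool inside mitochondria. Of these, Slc25a23 (ENSMUSG00000046329.14, chr17:57043711-57059863, minus strand) had 21.3, 9.82, 14.3 and 17.8 CPM in Yy1+/+, 2.52, 3.37, 5.56 and 9.76 CPM in Yy1-/-, and 9.83, 9.49, 7.11 and 10.2 CPM in Yy1-/- Smc3+/-. The Yy1-/- libraries all lay below Yy1+/+, the highest of them being replicate 4, the library with most Yy1 reads of its genotype, and the next replicate 3. In Yy1-/- Smc3+/- the order was otherwise: replicate 3, with the most Yy1 reads of its genotype, had the lowest Slc25a23 level. Slc25a23 fell to 0.336 of the Yy1+/+ level in Yy1-/- (-1.57 ± 0.37, edgeR adjusted p = 0.00540). In Yy1-/- Smc3+/- the log2 fold change was -0.78 (-1.55 to -0.02, edgeR adjusted p = 0.114). Its relatives Slc25a24 and Slc25a25 had 0.06 and -0.05 in Yy1-/- and -0.22 and 0.13 in Yy1-/- Smc3+/-, without passing the test, and Slc25a41 was too low to place (95% interval -0.83 to 2.22 in Yy1-/-).

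Among the 7 tested carriers of amino acids, Slc25a29 rose in Yy1-/-, and Slc25a29, Slc25a13 and Slc25a15 rose in Yy1-/- Smc3+/-, while none fell. Slc25a29 (ENSMUSG00000021265.3, chr12:108825873-108835883, minus strand) encodes a carrier of the basic amino acids arginine and lysine. It had 6.16, 2.24, 2.80 and 5.16 CPM in Yy1+/+, 18.5, 12.8, 14.0 and 11.8 CPM in Yy1-/-, and 20.7, 8.72, 14.99 and 10 CPM in Yy1-/- Smc3+/-. All 8 libraries lay above all 4 of Yy1+/+, with the widest spread in Yy1-/- Smc3+/-. It rose 3.51-fold in Yy1-/- (1.81 ± 0.36, edgeR adjusted p = 0.00203) and 3.35-fold in Yy1-/- Smc3+/- (1.74 ± 0.36, edgeR adjusted p = 0.00307).

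Slc25a29 lies 5724 bases from the end of Yy1 (chr12:108792973-108820148, plus strand, GRCm38), and the genes run towards each other. On its other side, 162 bases from its start in the GENCODE annotation, begins Slc25a47 (chr12:108836046-108856815, plus strand), a carrier with no settled substrate, which did not pass the test (-0.41, 95% interval -1.02 to 0.20, in Yy1-/- and -0.22, -0.83 to 0.38, in Yy1-/- Smc3+/-). RefSeq places the start of Slc25a47 at 108851129, so the short distance holds for GENCODE only. The ratio of Slc25a29 to Slc25a47 TPM, a pair chosen after its values were seen, was 0.518 to 1.36 in Yy1+/+, 3.44 to 5.09 in Yy1-/- and 2.10 to 5.78 in Yy1-/- Smc3+/-. Wars, the tryptophanyl-tRNA synthetase gene beyond them, rose by 0.40 ± 0.12 in Yy1-/- (edgeR adjusted p = 0.0195) and 0.36 ± 0.12 in Yy1-/- Smc3+/- (edgeR adjusted p = 0.0382). Other neighbours of Yy1 differed among themselves. Gm34220, 229 bases from Yy1 and on the other strand, was lower in Yy1-/- (-4.05 ± 0.68, edgeR adjusted p = 0.00103) and in Yy1-/- Smc3+/- (edgeR adjusted p = 0.000342). Degs2, a sphingolipid enzyme gene on the far side of Yy1, rose in both (edgeR adjusted p = 0.000696 and 0.000165): it had 0 to 0.301 CPM in Yy1+/+, 1.41 to 3.17 CPM for Yy1-/- and 1.64 to 6.90 CPM for Yy1-/- Smc3+/-. Evl (0.30 and -0.24) and Wdr25 (0.14 and 0.05) did not pass. The gene tables do not show whether reads at Slc25a29 continue from the altered Yy1 locus, and this was not tested.

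Slc25a13 (ENSMUSG00000015112.15, chr6:6041218-6217173, minus strand) encodes citrin, the aspartate/glutamate carrier of the malate-aspartate shuttle. It had 27.9, 33.1, 44.0 and 32.8 CPM in Yy1+/+, 41.3, 43.3, 42.2 and 51.1 CPM in Yy1-/-, and 44.6, 52.3, 48.2 and 49.1 CPM in Yy1-/- Smc3+/-. Yy1+/+ replicate 3 lay within the Yy1-/- range and just below the lowest Yy1-/- Smc3+/- library. Its log2 fold change was 0.37 in Yy1-/- (0.04 to 0.70, edgeR adjusted p = 0.0758) and it rose 1.41-fold in Yy1-/- Smc3+/- (0.50 ± 0.15, edgeR adjusted p = 0.0265), a call lost in 9 of 17 alternatives (adjusted p 0.00793 to 0.239), among them without replicates 2, 3 or 4 of Yy1-/- Smc3+/- or replicates 1 or 4 of Yy1+/+ (0.405 to 0.50). Slc25a12, its relative aralar, had a log2 fold change of 0.15 in each comparison.

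Slc25a15 (ENSMUSG00000031482.9, chr8:22375551-22398597, minus strand) encodes the ornithine carrier of the urea cycle. It had 40.7, 43.8, 43.0 and 42.7 CPM in Yy1+/+, 48.2, 47.7, 47.0 and 54.0 CPM in Yy1-/-, and 69.4, 63.6, 41.9 and 53.9 CPM in Yy1-/- Smc3+/-. The Yy1-/- libraries lay above Yy1+/+, but replicate 3 of Yy1-/- Smc3+/- lay within the Yy1+/+ range. Its log2 fold change was 0.21 in Yy1-/- (edgeR adjusted p = 0.301) and it passed narrowly in Yy1-/- Smc3+/- (0.43 ± 0.15, edgeR adjusted p = 0.0484). That call was lost in 14 of 17 alternatives (adjusted p 0.0111 to 0.421), among them without any 1 of 7 libraries in turn, with values of 0.321 to 0.456. The glutamate carrier gene Slc25a22, the glycine carrier gene Slc25a38 and the branched-chain amino acid carrier gene Slc25a44 did not pass, with log2 fold changes between -0.33 and -0.07 in the 2 comparisons.

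Among the 5 carriers of carboxylates and fatty acids, Slc25a21 fell in both comparisons and the others did not pass. Slc25a21 (ENSMUSG00000035472.14, chr12:56712634-57197472, minus strand) encodes the carrier of oxoadipate, an intermediate of lysine and tryptophan breakdown. It had 16.2, 5.79, 6.93 and 9.62 CPM in Yy1+/+ replicates 1 to 4, 0, 0, 4.195 and 1.65 CPM in Yy1-/-, and 0.419, 0.257, 4.83 and 0 CPM in Yy1-/- Smc3+/-. A value of 0 allows up to 0.0762, 0.0598 and 0.0745 CPM in the libraries concerned. The 3 highest of these 8 libraries, Yy1-/- replicates 3 and 4 and Yy1-/- Smc3+/- replicate 3, were the 3 with the most remaining Yy1 reads. Within these 3 the order was reversed: Yy1-/- replicate 4 had the most Yy1 (12.2 CPM) and the least Slc25a21. These 3 libraries also had the highest summed level of 20 erythroid genes of the 8, at 1115, 658 and 714 CPM. The others had 200 to 586, and Yy1+/+ had 1980 to 3068. Of the 3, Yy1-/- Smc3+/- replicate 3 also had 17600 CPM summed over 14 neutrophil and granulocyte progenitor genes, against 1917 to 2644 in the others of its genotype. Yy1-/- replicates 3 and 4 had 4532 and 7484 CPM of these, and replicates 1 and 2 had 4712 and 6658. The part of the Yy1 reads or of these genes in the result was not tested.

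Slc25a21 fell in Yy1-/- (-2.72 ± 0.92, edgeR adjusted p = 0.0345) and in Yy1-/- Smc3+/- (-2.86 ± 0.94, edgeR adjusted p = 0.0357). The calls were lost in 8 and in 7 of 17 alternatives, with adjusted p from 0.000521 to 0.280 and from 0.000428 to 0.282, among them without replicates 1 or 4 of Yy1+/+, replicates 1, 2 or 4 of Yy1-/- (-2.81 to -2.26) and replicates 1, 2 or 4 of Yy1-/- Smc3+/- (-2.86 to -2.44). Without Yy1-/- replicate 3 the value was -4.21 (edgeR adjusted p = 0.0125), and without Yy1-/- Smc3+/- replicate 3 it was -5.35 (edgeR adjusted p = 0.00405). The 0 counts in Yy1-/- replicates 1 and 2 allow up to 0.0335 CPM over both libraries, from 3 counts and for counting error only. The Yy1+/+ mean was 9.62 CPM. These 2 libraries were picked for their 0 counts, so they give no fold change for the genotype. Replicates 3 and 4 held 4.195 and 1.65 CPM, and Slc25a21 in Yy1-/- was fitted at 0.152 of the Yy1+/+ level. Of its exons, 189 of 4872 bases are shared with Pax9 on the other strand, and the kit does not mark strand.

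**Figure D4:**
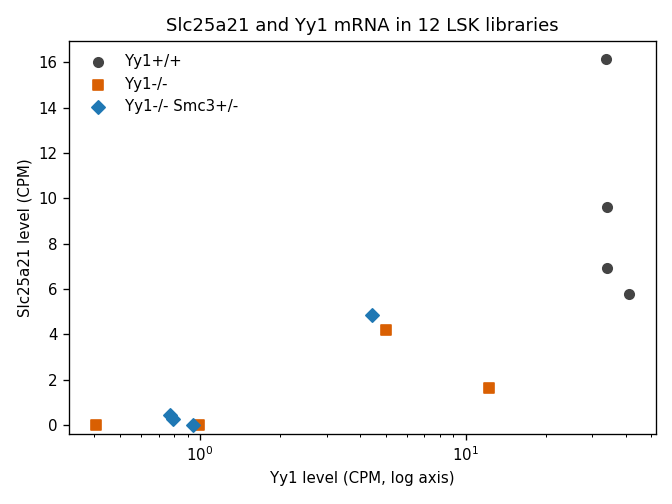
Slc25a21 level against Yy1 level (CPM, horizontal log axis) in the 12 libraries. Of the 8 libraries without the Yy1+/+ label, the 3 with the most Yy1 reads, 4.45 to 12.2 CPM, hold 1.65 to 4.83 CPM of Slc25a21. The other 5 hold at most 0.419. Within the 3 the order is reversed: the library with 12.2 CPM of Yy1 holds 1.65 CPM of Slc25a21, and the one with 4.45 holds 4.83.

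Slc25a1 (chr16:17925223-17928219, minus strand), the citrate carrier gene that feeds cytosolic fatty acid synthesis, had 150, 193, 147 and 160 CPM in Yy1+/+, 71.0, 95.5, 155 and 138 CPM in Yy1-/-, and 144, 112, 137 and 115 CPM in Yy1-/- Smc3+/-. Yy1-/- replicates 1 and 2 were low and replicates 3 and 4, with more Yy1 reads, were near Yy1+/+. Replicates 1 and 2 of Yy1-/- also had the highest summed levels of monocyte, macrophage and dendritic cell genes, 6842 and 4694 CPM. In Yy1-/- Smc3+/-, replicate 1, with 0.771 CPM of Yy1, was highest, above replicate 3 with 4.45. The part of either in the Slc25a1 level was not tested. The log2 fold change was -0.50 (-0.95 to -0.05, edgeR adjusted p = 0.0798) in Yy1-/- and -0.36 (edgeR adjusted p = 0.218) in Yy1-/- Smc3+/-, and in Yy1-/- it was -0.71 without replicate 3 (edgeR adjusted p = 0.0208) and -0.995 without the 3 libraries with most Yy1 reads (edgeR adjusted p = 0.00408). Slc25a11 (chr11:70644196-70647479, minus strand), the oxoglutarate/malate carrier gene, had 183, 178, 164 and 202 CPM in Yy1+/+, 206, 154, 178 and 157 CPM in Yy1-/-, and 168, 149, 133 and 143 CPM in Yy1-/- Smc3+/-. Its groups overlapped, with log2 fold changes of -0.07 (edgeR adjusted p = 0.708) and -0.30 (edgeR adjusted p = 0.0957). Slc25a10 and Slc25a20, the dicarboxylate and the carnitine/acylcarnitine carrier genes, had 0.35 and -0.12 in Yy1-/- and 0.16 and -0.15 in Yy1-/- Smc3+/-.

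None of the 4 tested carriers of iron and glutathione passed the test. Slc25a39 (chr11:102402985-102407946, minus strand) had 183, 287, 192 and 213 CPM in Yy1+/+, 315, 222, 323 and 292 CPM in Yy1-/-, and 312, 270, 297 and 267 CPM in Yy1-/- Smc3+/-. As for Slc25a5, Yy1+/+ replicate 2 was the high library of its genotype. The log2 fold change was 0.40 (0.05 to 0.74, edgeR adjusted p = 0.0684) and 0.39 (0.05 to 0.73, edgeR adjusted p = 0.0823), and without Yy1+/+ replicate 2 both passed (0.554 and 0.546, edgeR adjusted p = 0.00920 and 0.0119), as did Yy1-/- without its replicate 2 (0.503, edgeR adjusted p = 0.0243). The iron carrier genes Slc25a37 (mitoferrin 1, the erythroid form) and Slc25a28 (mitoferrin 2) had -0.40 and -0.11 in Yy1-/- (edgeR adjusted p = 0.160 and 0.586). Of 20 erythroid genes 7 (35.0%) fell and 0 rose in Yy1-/-, where 35.2% of all genes passed and 18.8% fell. In Yy1-/- Smc3+/- 11 (55.0%) fell and 0 rose, where 29.9% of all genes passed and 16.7% fell.

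Among the 9 tested carriers of other nucleotides and cofactors, Slc25a36 fell in both comparisons and Slc25a42 in Yy1-/-. Slc25a36 (ENSMUSG00000032449.13, chr9:97074961-97111157, minus strand) encodes a carrier of pyrimidine nucleotides, used for mitochondrial DNA and RNA. It had 67.9, 55.1, 56.6 and 67.3 CPM in Yy1+/+, 31.7, 39.7, 34.9 and 29.8 CPM in Yy1-/-, and 27.6, 49.1, 41.7 and 40.6 CPM in Yy1-/- Smc3+/-. No library of the other genotypes reached the Yy1+/+ range. It fell to 0.552 of the Yy1+/+ level in Yy1-/- (-0.86 ± 0.18, edgeR adjusted p = 0.00250) and, in Yy1-/- Smc3+/-, to 0.643 (-0.64 ± 0.18, edgeR adjusted p = 0.0156). Its expected counts were split with other genes in 10 libraries. Slc25a33, the other pyrimidine nucleotide carrier gene, had -0.18 and -0.21 without passing.

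Slc25a42 (ENSMUSG00000002346.16, chr8:70184340-70212305, minus strand) encodes the coenzyme A carrier. It had 10.8, 3.63, 7.66 and 9.58 CPM in Yy1+/+, 3.38, 4.14, 2.42 and 5.87 CPM in Yy1-/-, and 5.42, 3.41, 4.14 and 5.21 CPM in Yy1-/- Smc3+/-. Yy1+/+ replicate 2 lay within the range of both other genotypes. The fall passed narrowly in Yy1-/- (-0.99 ± 0.36, edgeR adjusted p = 0.0491) and the value in Yy1-/- Smc3+/- was -0.79 (edgeR adjusted p = 0.116). The call in Yy1-/- was lost in 9 of 17 alternatives (adjusted p 0.00782 to 0.143), among them without replicates 1, 3 or 4 of Yy1+/+ or 1, 2 or 3 of Yy1-/- (-1.02 to -0.80), and without Yy1+/+ replicate 2 Slc25a42 passed in Yy1-/- Smc3+/- (-1.04, edgeR adjusted p = 0.0219). The NAD+ carrier gene Slc25a51 stayed within narrow bounds, at -0.09 (-0.34 to 0.16) and -0.11 (-0.36 to 0.14).

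The 3 members related to uncoupling proteins, Slc25a14, Slc25a27 and Slc25a30, did not pass. Slc25a27 had the largest value of these, -0.80 (-1.60 to 0.00, edgeR adjusted p = 0.112) in Yy1-/-.

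Of the 6 tested members of the outer membrane or with no settled substrate, Slc25a46 rose in both comparisons, Slc25a35 fell in both and Slc25a53 fell in Yy1-/-. Slc25a46 (ENSMUSG00000024259.9, chromosome 18) encodes an outer membrane protein known for its part in the shape of mitochondria. It had 72.1, 58.7, 62.8 and 70.7 CPM in Yy1+/+, 129, 76.6, 98.9 and 78.2 CPM in Yy1-/-, and 75.3, 102, 111 and 96.4 CPM in Yy1-/- Smc3+/-. All 8 libraries lay above Yy1+/+, the lowest by a small step. It rose 1.45-fold in Yy1-/- (0.54 ± 0.18, edgeR adjusted p = 0.0330) and 1.46-fold in Yy1-/- Smc3+/- (0.54 ± 0.18, edgeR adjusted p = 0.0360), and these calls were lost in 9 and 10 of 17 alternatives (adjusted p 0.0207 to 0.358 and 0.0218 to 0.180). Without Yy1-/- replicate 1 the value in Yy1-/- was 0.326 (edgeR adjusted p = 0.143), and the call was also lost without Yy1-/- replicate 3 or Yy1+/+ replicates 2, 3 or 4 (0.48 to 0.566). In Yy1-/- Smc3+/- it was lost without its replicates 2, 3 or 4 or any 1 Yy1+/+ library (0.466 to 0.585). On the other strand, B930094E09Rik shares 383 of the 5425 exon bases of Slc25a46, and reads of the 2 genes cannot be told apart there. Slc25a46 expected counts were split in all 12 libraries. B930094E09Rik rose by 1.75 ± 0.35 and 1.73 ± 0.35 from a low level. Its mean was 0.871 CPM under the Yy1+/+ label, then 2.88 and 2.85 CPM under the other labels in the order above. Slc25a46 means were 66.1, 95.8 and 96.2 CPM in that order. The part of the shared bases in the Slc25a46 rise was not tested.

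Slc25a35 (ENSMUSG00000018740.14, chr11:68968131-68974365, plus strand) had 10.3, 9.23, 13.7 and 15.3 CPM in Yy1+/+, 4.47, 2.29, 4.17 and 6.97 CPM in Yy1-/-, and 4.87, 6.13, 4.11 and 4.32 CPM in Yy1-/- Smc3+/-. The ranges did not overlap with Yy1+/+. It fell to 0.368 of the Yy1+/+ level (-1.44 ± 0.31, edgeR adjusted p = 0.00334) and to 0.403 (-1.31 ± 0.31, edgeR adjusted p = 0.00685). It shares 1151 of 3677 exon bases with Rangrf on the other strand and its expected counts were split in all 12 libraries, so part of its reads may be those of Rangrf, whose own log2 fold change was -0.49 (edgeR adjusted p = 0.108) in Yy1-/- and -0.75 (edgeR adjusted p = 0.0235) in Yy1-/- Smc3+/-.

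Slc25a53 (ENSMUSG00000044348.14, chrX:136981116-137038302, minus strand) had 10.4, 12.6, 12.5 and 18.5 CPM in Yy1+/+, 2.69, 6.41, 7.90 and 6.44 CPM in Yy1-/-, and 7.52, 9.31, 3.57 and 11.4 CPM in Yy1-/- Smc3+/-. All Yy1-/- libraries were below Yy1+/+, and in Yy1-/- Smc3+/- replicate 4 lay within the Yy1+/+ range. It fell to 0.438 of the Yy1+/+ level in Yy1-/- (-1.19 ± 0.36, edgeR adjusted p = 0.0210), a call lost without Yy1+/+ replicate 4 (-1.01, edgeR adjusted p = 0.0671) and without the 2 libraries that stand apart, Yy1+/+ replicate 2 and Yy1-/- replicate 1 (-1.03, edgeR adjusted p = 0.0520). In Yy1-/- Smc3+/- it was -0.76 (edgeR adjusted p = 0.123).

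**Figure D5:**
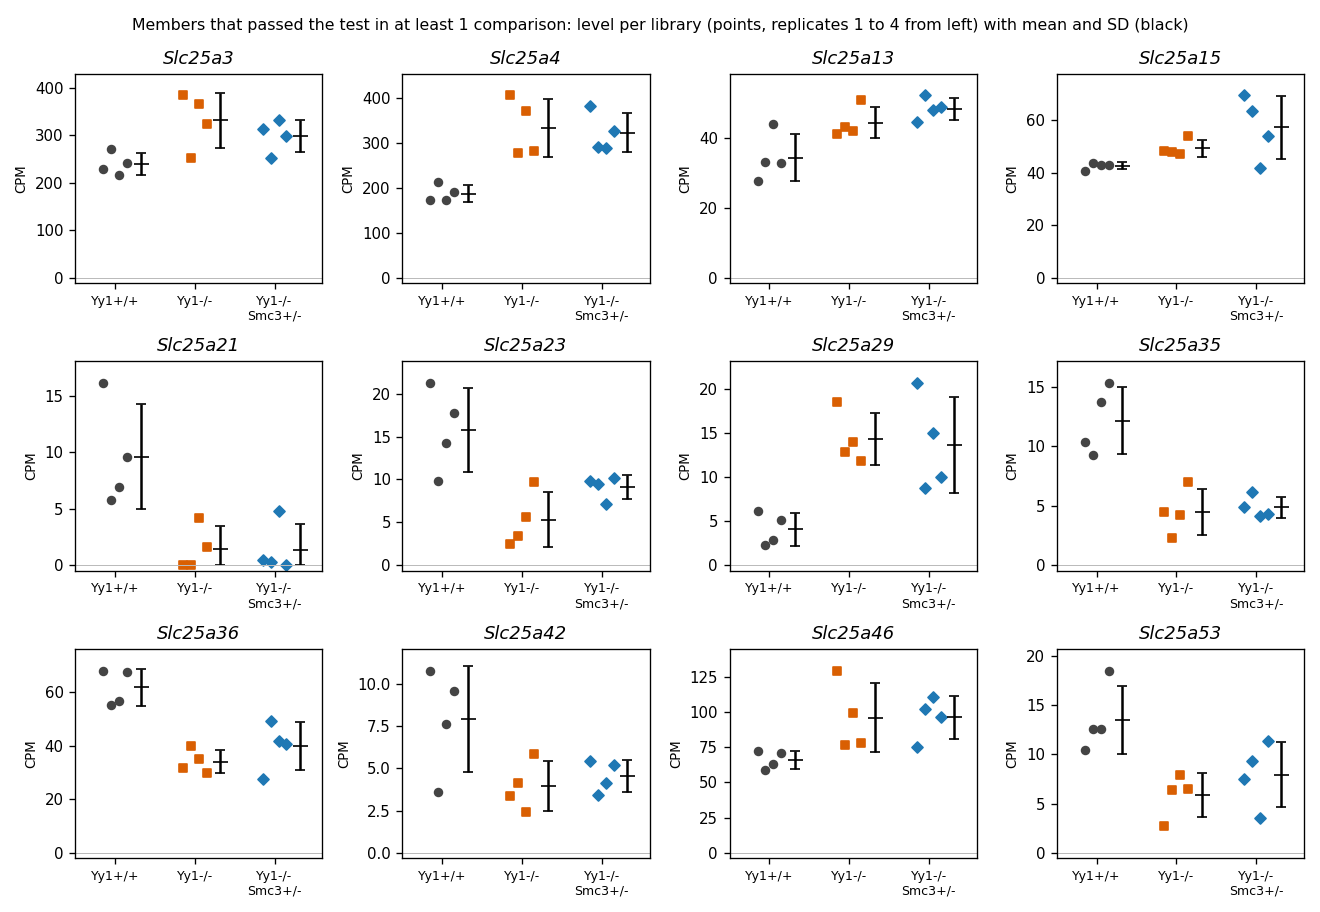
CPM per library of the 12 members that passed the test in at least 1 comparison with Yy1+/+ (points, replicates 1 to 4 from left; black, mean and SD of n = 4, not drawn under 0; vertical axes start at or just below 0). Slc25a4, Slc25a29, Slc25a35, Slc25a36, Slc25a46 and Slc25a21 are separated from Yy1+/+ in both other genotypes.

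Against Yy1-/-, the libraries labelled Yy1-/- Smc3+/- showed no member past the threshold: 0 of 41 by edgeR, beside 0.036% of all genes, 0 by DESeq2, and 0 at an unadjusted p under 0.05, beside 6.46% of all genes. No member had groups without overlap, beside 2.01% of all genes. The median log2 fold change over the members was 0.007. The highest was Slc25a23 at 0.79 (-0.02 to 1.61, edgeR adjusted p = 0.756) and the lowest Slc25a41 at -0.94 (-2.61 to 0.73). The 95% interval lay within a 2-fold change either way for 35 members; for the other 6, among them Slc25a21 (-2.61 to 2.33), it reached past 2-fold.

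Genes of the machinery around the carriers are given by list, to be read beside the 35.2% of all genes that passed in Yy1-/- and the 29.9% in Yy1-/- Smc3+/-. Of 16 genes for the import of carrier proteins, 9 rose and 0 fell in Yy1-/- (median log2 change 0.519), and 5 rose and 1 fell in Yy1-/- Smc3+/-, with a median of 0.308, where the median over all genes was 0.006 and 0.020. Tomm22, a receptor of the outer membrane translocase, rose by 1.00 ± 0.16 in Yy1-/- (edgeR adjusted p = 0.000439). Of 17 measured ATP synthase genes 10 rose and 0 fell in Yy1-/- and 6 rose and 1 fell in Yy1-/- Smc3+/-, with medians of 0.487 and 0.346; Atp5l and Atp5g3 led, at 1.15 ± 0.12 and 1.10 ± 0.14 in Yy1-/-. Over all settings the number of risen genes in Yy1-/- ran from 4 to 10 for the import list, with 0 to 3 fallen, and from 4 to 12 for ATP synthase, with 0 to 2 fallen.

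Of 11 measured one-carbon and glycine enzymes 7 rose and 1 fell in Yy1-/- and 6 rose and 0 fell in Yy1-/- Smc3+/-, and over all settings 3 to 8 and 4 to 6 rose. Mthfd2, a folate enzyme of mitochondria, rose by 1.94 ± 0.22 and 1.78 ± 0.22 (edgeR adjusted p = 4.32e-05 and 8.31e-05), and Shmt2 by 0.70 ± 0.12 and 0.77 ± 0.12. Of 12 measured carnitine and beta-oxidation genes 4 fell, 1 rose and 7 did not pass in Yy1-/-, and 6 fell and 6 did not pass in Yy1-/- Smc3+/-, with 4 to 7 and 3 to 6 fallen over all settings. In Yy1-/- the gene that rose was Acadl (0.36 ± 0.13, edgeR adjusted p = 0.0417), and Cpt1a (-0.10) and Acadvl (0.03) did not pass. Acadm, which starts the breakdown of medium-chain fatty acids, fell by 1.78 ± 0.21 in Yy1-/- (edgeR adjusted p = 7.50e-05) and by 1.60 ± 0.21 in Yy1-/- Smc3+/- (edgeR adjusted p = 0.000164), while Slc25a20, the carrier of that pathway, did not pass. Of 24 haem and iron-sulphur genes 3 rose and 3 fell in Yy1-/-, and 2 rose and 6 fell in Yy1-/- Smc3+/-, with 3 to 8 fallen in each over all settings. The called shares, 25% and 33.3%, stand beside 35.2% and 29.9% of all genes, below in Yy1-/- and slightly above in Yy1-/- Smc3+/-. Of 9 malate-aspartate and citrate-malate enzymes 2 rose and 0 fell in each, Me2 and Got1, a share of 22.2% that is below that of all genes. Of 14 other mitochondrial membrane transporters, 3 rose and 2 fell in Yy1-/- and 2 rose and 2 fell in Yy1-/- Smc3+/-; the sideroflexin genes Sfxn3 and Sfxn1 fell in both, Sfxn3 by 1.48 ± 0.18 in Yy1-/-. All these counts use the same libraries as the carriers. In these libraries stem cell and megakaryocyte genes fell, and monocyte, macrophage and dendritic cell genes rose, as given above. Genes of the lymphoid and the eosinophil, mast cell and basophil lists went both ways. The part of these changes in the counts was not tested.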

How the data were processed

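RNA of sorted LSK cells was sequenced with the SMART-Seq ultra-low-input kit, which does not mark strand, per the labels' protocols. STAR 2.5.2b, RSEM 1.3.0 and mm10 are named in the submitters' processing notes; settings and annotation are not given in the sources used here. The expected count and TPM columns were deposited by the authors, per the file headers, and the deposited FPKM column was not used. Symbols came from GENCODE M21 (GRCm38): 55094 genes matched with version, 300 with another version and 93 did not match. Promoter windows are RefSeq GRCm38.p6.

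Expected counts were rounded, and 16649 genes passed filterByExpr of edgeR 4.0.16 (R 4.3.3; minimum count 10, minimum total 15). TMM scaling and 1 quasi-likelihood model over all 12 libraries gave the F tests, with Benjamini-Hochberg adjustment over all genes. SE is the log2 fold change over the square root of F. Alternatives used DESeq2 1.42.0, limma 3.58.1 on log2(TPM + 1), other filters and scalings, and left-out libraries.

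The first fit run here estimated a dispersion trend before the quasi-likelihood step, which called 4 members higher and 4 lower in Yy1-/- and 4 and 2 in Yy1-/- Smc3+/-. Many dispersion settings were then compared, with member results already seen. The present edgeR default was kept because its counts over all genes came closest to earlier results of these data. Slc25a21 and Slc25a42 in Yy1-/-, and Slc25a21 and Slc25a15 in Yy1-/- Smc3+/-, pass only under the setting reported, of these 2. The members and gene lists were chosen with earlier results of these data known. The members described with values in every library are those called in a comparison and the 6 with the highest TPM in Yy1+/+. The test was checked on simulated counts. Intervals are at 95%; bounds for values of 0 use 3 counts and cover counting error only; the reads carry no molecular identifiers, so PCR copies are counted as separate reads.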

Additional observations from a re-analysis of the deposited data

Results flagged for a closer look

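Slc25a5 in Yy1+/+ replicate 2, at 1240 CPM, lay far from the other 3 libraries of its genotype, which held 624 to 700 CPM. Slc25a21 in Yy1-/- Smc3+/- replicate 3, at 4.83 CPM, lay far from the others of its genotype, at 0 to 0.419 CPM. These are 2 of 48 groups of 4 libraries examined, over 16 members, and chance sets apart about 1 in 20 such groups.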

How the results depend on the processing

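No paired analysis was possible because the labels carry no replicate numbers shared between genotypes; the numbers 1 to 4 follow the order of deposit. Slc25a4, Slc25a29, Slc25a35 and Slc25a36 in both comparisons with Yy1+/+, and Slc25a23 in Yy1-/-, passed the test in all 17 alternatives run for each, and no call of a described member reversed. For Yy1-/-, log2(TPM + 1) with limma gave 2 members higher, 12 lower and a median of -0.294, and leaving out the 3 libraries with most Yy1 reads, chosen after seeing the data, gave 2 higher. For Yy1-/- Smc3+/- against Yy1+/+, log2(TPM + 1) gave 2 higher, 5 lower and -0.246; no filter gave 2 higher and -0.151; a fit of the 2 genotypes alone gave 6 lower; leaving out the 3 libraries gave 3 higher; and leaving out Yy1+/+ replicate 2 and Yy1-/- replicate 1, also chosen after seeing the data, gave 6 lower and -0.137. For Yy1-/- Smc3+/- against Yy1-/-, log2(TPM + 1) gave a median of 0.093, where the median of all genes was 0.059. The causes were not tested. Leaving out 1 library in turn gave 2 to 5 higher, 3 to 6 lower and a median of -0.108 to 0.006 in Yy1-/-; 2 to 4 higher, 2 to 4 lower and -0.124 to -0.002 in Yy1-/- Smc3+/-; and 0 higher, 0 lower and -0.014 to 0.054 between these. The earlier dispersion method, used in the first fit run here, gave 4 higher and 4 lower in Yy1-/-, and 4 and 2 in Yy1-/- Smc3+/-. The setting reported here was the one chosen after seeing the data. Very low values, such as those of Slc25a41, are limited by depth. Slc25a21 ran from 0 to 4.195 CPM within Yy1-/- and from 0 to 4.83 within Yy1-/- Smc3+/-. For this gene depth limits only the bounds on the values of 0.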

Other observations

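Other pairs of related carriers kept overlapping ratios. Slc25a37 stood at 20.8% to 32.9% of the TPM of Slc25a28 in Yy1+/+, 15.9% to 21.4% in Yy1-/- and 16.3% to 25.02% in Yy1-/- Smc3+/-. Slc25a12 over Slc25a13 was 1.51 to 2.54, 1.47 to 1.89 and 1.37 to 1.71 in the same order, and Slc25a33 over Slc25a36 was 0.689 to 1.14, 0.887 to 2.16 and 0.753 to 1.63. Of the carriers of this family that have other symbols, Mtch1, an outer membrane protein gene, rose by 0.49 ± 0.11 in Yy1-/- and 0.50 ± 0.11 in Yy1-/- Smc3+/- (edgeR adjusted p = 0.00501 and 0.00524), its relative Mtch2 rose by 0.41 ± 0.13 in Yy1-/- (edgeR adjusted p = 0.0250), and the uncoupling protein gene Ucp2 did not pass, at 0.26 and -0.24.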
